A study of Homo sapiens with 12 samples.

Results

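The cytosolic ribosomal protein genes were taken as every row of biotype protein_coding named RPL or RPS plus a digit, together with RPSA, RPLP0, RPLP1 and RPLP2. RPS27L, the RPS6K kinases and hyphenated read-through names were left out. The rule found 87 of 58735 rows. Of these, 46 encode proteins of the large subunit, 31 encode proteins of the small subunit, and 9 are paralogs of such genes. The remaining row, RPS19BP1, matches the names but encodes a protein that binds RPS19 and is not itself a subunit. It is described apart from the subunits. RPL10L and the Y-linked RPS4Y2 had no count in any library, and the other 85 rows passed the filter on low counts. FAU, which encodes a ribosomal protein fused to a ubiquitin-like protein, carries another name and lies outside the rule. No level is given for the 2 Y-linked rows.

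Ribosomal proteins are assembled on ribosomal RNA in matched amounts, and the genes are among the most highly transcribed in growing cells. Their mRNAs open with a C followed by a run of pyrimidines, the 5′ terminal oligopyrimidine (TOP) motif, through which the kinase mTOR and the RNA-binding protein LARP1 adjust translation. Genes for elongation factors and poly(A)-binding protein share the motif. RPL5 and RPL11, when not bound into ribosomes, hold back MDM2, the ligase that degrades p53.

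RNA was sequenced from A549 cells, an established human lung adenocarcinoma line, in 4 groups of 3 libraries that the design text calls biological replicates. The groups were shFXR cells (genotype label FXR knockdown) 3 days after ionizing radiation, shFXR cells after sham irradiation, shControl cells (genotype label WT) 3 days after ionizing radiation, and shControl cells after sham irradiation. Both lines carried a stably transfected hairpin, and neither the number of clones nor the dose is given in the sources used here. Library totals ran between 17140918 and 19036159 counts. The gene targeted was read as NR1H4 (farnesoid X receptor), a reading the labels leave unstated, and it averaged 3.00 ± 0.136 CPM in irradiated and 4.15 ± 1.19 CPM in sham shFXR cells, against 24.8 ± 3.81 CPM in irradiated and 23.6 ± 1.52 CPM in sham shControl cells (SD, n = 3). Levels are library-size scaled counts (CPM) adjusted by the trimmed mean of M values (TMM). Differences are log2 fold changes ± SE from edgeR's quasi-likelihood test, with Benjamini-Hochberg adjustment over 16053 genes, and a gene was called at an adjusted p under 0.05. In bulk samples, fewer cells of a type and less RNA per cell cannot be told apart.

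One library stood apart. The sham shControl library 2 had the lowest TMM factor, 0.917, and the lowest weight, 0.244, when each library was weighted by its fit, and 16.8% of its counts were mitochondrial. It was the highest sham shControl library for 78 of the 85 tested members, a trait not particular to it. In their own groups, the irradiated shControl library 3 was highest for 76 members and the irradiated shFXR library 3 for 67. The sham shFXR library 2 was highest for 58. Counts of members and list genes called in sham cells between the lines are also given without the sham shControl library 2. The epithelial markers EPCAM, KRT8, KRT18, KRT19 and CDH1 summed to between 2459 and 3537 CPM in shFXR libraries, against 5190 to 8305 CPM in shControl libraries, and KRT8 and KRT18 led that sum. Of 5 leukocyte markers PTPRC, CD3E and LYZ were at or near 0, and the sum, nearly all of it CD14, ran between 12.2 and 15.9 CPM in irradiated and 8.04 and 10.2 CPM in sham shFXR cells, against 21.5 to 45.0 CPM in irradiated and 32.9 to 54.0 CPM in sham shControl cells. Of 5 fibroblast markers COL1A2 was at or near 0, and the sum, led by THY1 and FAP, ran between 33.5 and 35.5 CPM in irradiated and 19.5 and 26.7 CPM in sham shFXR cells, against 18.0 to 23.3 CPM in irradiated and 22.7 to 27.9 CPM in sham shControl cells. The 3 tested fibroblast markers, COL1A1, THY1 and FAP, were all called higher in shFXR cells after irradiation, and 2 were called lower in sham cells. The mitochondrial share also moved with the line, at 12.6% ± 0.418 in irradiated and 10.5% ± 0.666 in sham shFXR cells, against 14.8% ± 1.48 in irradiated and 14.4% ± 2.08 in sham shControl cells. The part of these differences in the results below was not tested.

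The start regions of the genes that the results turn on are printed because the TOP run is the feature this family is known for. RefSeq promoters (GRCh38.p14, the assembly of hg38 with later patches) were matched by symbol for 69 of the 87 members. Each line gives 20 bases before and 20 bases from the listed start, 5′ to 3′ on the strand of the gene, and capitals mark a run of at least 5 pyrimidines that opens with C and begins within 10 bases of that start. Where a gene has several listed starts, 1 is shown. For RPL13 it is the only listed start with such a run. The other listed starts of RPL19 and RPS27A also had a run, and the other listed start of RPL26L1 had none.
RPL19 chr17:39200303-39200342 (+): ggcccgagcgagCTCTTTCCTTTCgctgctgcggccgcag
RPL12 chr9:127451387-127451426 (-): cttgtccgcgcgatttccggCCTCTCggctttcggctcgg
RPL13 chr16:89560662-89560701 (+): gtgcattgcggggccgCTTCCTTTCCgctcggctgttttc
RPL28 chr19:55385912-55385951 (+): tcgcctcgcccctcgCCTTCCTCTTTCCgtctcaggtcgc
RPL18 chr19:48619159-48619198 (-): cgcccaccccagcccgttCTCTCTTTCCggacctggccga
RPS27A chr2:55232668-55232707 (+): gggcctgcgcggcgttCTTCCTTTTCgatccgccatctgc
RPL22L1 chr3:170870176-170870215 (-): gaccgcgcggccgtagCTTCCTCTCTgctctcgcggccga
RPL7L1 chr6:42879596-42879635 (+): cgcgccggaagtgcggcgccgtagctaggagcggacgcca
RPL26L1 chr5:172958860-172958899 (+): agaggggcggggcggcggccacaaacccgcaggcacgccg

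The paralogs RPL7L1 and RPL26L1 had no such run in these windows, while the paralog RPL22L1 and the 6 canonical genes shown did. A start that is itself C and opens a run of at least 5 pyrimidines was found for 48 of the 69 members (69.6%), against 1404 of 27305 genes with a listed promoter (5.14%). A run beginning within 10 bases of a start was found for 60 of 69 members (86.96%), against 38.4% of all genes. In the 300 bases listed per start, searched on both strands, CCGGAAG, a sequence that ETS-family factors can bind, occurred in 33.3% of members and 12.2% of all genes. GGGCGG, the GC box, occurred in 56.5% of members and 48.3% of all genes, and the E-box CACGTG in 7.25% of members and 8.77% of all genes. Each sequence was counted on its own, so matches may overlap one another, and CCGGAAG read on the other strand can overlap a pyrimidine run. A match is a description of the letters, not of a bound site. RPL39L is named only, with no window.

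The family as a whole held a larger part of the library in shFXR cells than in shControl cells. The 87 genes took up 12.6%, 11.9% and 13.1% of the counts of the irradiated shFXR libraries, and 12.7%, 13.0% and 12.0% of the sham shFXR libraries. They took up 9.34%, 9.15% and 10.2% of the irradiated shControl libraries, and 10.7%, 11.1% and 9.98% of the sham shControl libraries. Every shFXR library lay above every shControl library, whereas irradiated and sham libraries overlapped in both lines. With mitochondrial rows left out of the total, the means were 14.4% in irradiated and 14.0% in sham shFXR cells, against 11.2% in irradiated and 12.4% in sham shControl cells. The balance between the subunits moved far less. RPL counts were 1.70 ± 0.00389 times RPS counts in irradiated and 1.69 ± 0.00721 times in sham shFXR cells, against 1.69 ± 0.0126 times in irradiated and 1.69 ± 0.0224 times in sham shControl cells, and every library lay between 1.66 and 1.71.

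**Figure D1:**
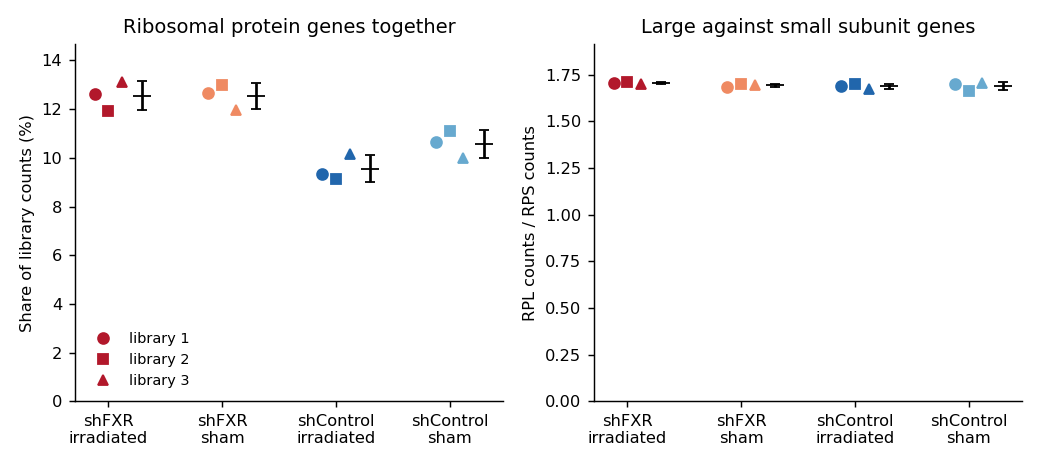
Share of library counts in the 87 ribosomal protein genes (left, %) and ratio of RPL to RPS counts (right) in each library, with the mean and SD of each group of 3 beside its points. The 6 shFXR libraries lie between 11.9% and 13.1% and the 6 shControl libraries between 9.15% and 11.1%, while the ratio stays between 1.66 and 1.71.

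Of the 85 tested members, 75 averaged at least 100 CPM. Levels were also set per kilobase of the union of a gene's exons. This union counts every annotated exon, 746 bases for RPL36AL and 9845 for RPS29. The order of genes therefore depends on the annotation as well as on the level. By this measure RPL13A was highest at 2501 CPM per kb. RPL41, the smallest ribosomal protein gene product, followed at 1828 CPM per kb, and RPS2, a small subunit protein near the mRNA entry side, at 1657 CPM per kb. At the other end stood RPL3L, the striated muscle form of RPL3, at 0.38 CPM per kb and RPS10 at 0.39 CPM per kb. The range of the 4 group means on the log2(CPM + 1) scale had a median of 0.34 over the members and of 0.40 over all genes tested. It was largest for RPL19 (0.78), RPL36A (0.75) and RPL39L (0.68). It was smallest for RPS27A (0.09), whose product is a fusion of ubiquitin with a small subunit protein, RPL17 (0.09) and RPL36AL (0.14).

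Low levels of some canonical genes stood beside overlapping annotation. RPS10 had 203 counts over all 12 libraries, and 39.4% of its exon bases are also exon bases of RPS10-NUDT3 on the same strand, a read-through gene with 0 counts. RPL17 had 3726 counts and shares 32.7% of its exon bases with RPL17-C18orf32 on the same strand, and RPL36A had 1995 counts with 8.40% shared. RPS2 shares 25.6% and had 869065 counts. On either strand, 55.5% of RPL10 exon bases are shared with other genes, the largest being DNASE1L1, which had 5478 counts beside 611710 for RPL10. The level of each of these genes is uncertain, and the part of overlap in it was not tested. Rows for 1149 ribosomal protein pseudogenes were also present, of which 464 had a count, and they held between 2.89% and 3.06% as many counts as the members in every library.

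In sham cells, 21 of the 85 tested members were called higher in shFXR than in shControl cells, against 18.0% of all genes tested, and 2 were called lower, against 19.4% of all genes. In either direction 37.4% of all genes were called. Most members are abundant, and of the 1580 other genes averaging at least 100 CPM, 396 were called higher and 444 lower. The share of higher calls among the members was therefore close to that of other abundant genes, while their lower calls were fewer. The median log2 difference was 0.16 over the members and -0.01 over all genes tested, and 71 of the 85 values were positive. By subunit, 13 of 46 large subunit genes rose and 1 fell, and 6 of 31 small subunit genes rose. Values of all 3 shFXR libraries lay above all 3 shControl libraries for 24 members, where 22.9% of all genes did so, and below them for 2 members, where 23.9% did so. These counts rest on single libraries. Without the sham shControl library 2, 58 members were called higher and 1 lower. Without the sham shControl library 1 or 3, 13 and 12 were called higher, and without the sham shFXR library 2, 12 were. With total counts as the only scaling, 54 were called higher and 1 lower, and the median over all genes then lay at 0.07, while the members' median stayed 0.17 above it.

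RPL12, which helps form the stalk base where translation factors bind, had 2350, 2420 and 2248 CPM in sham shFXR libraries, against 1844, 1844 and 1701 CPM in sham shControl libraries. The groups did not overlap, and the log2 difference was 0.38 ± 0.08 (adjusted p = 0.0011). RPS4X, an X-linked protein of the small subunit, had 2128, 2130 and 2046 CPM in sham shFXR cells, against 1696, 1785 and 1513 CPM in sham shControl cells (0.34 ± 0.08, adjusted p = 0.0026). Again every shFXR library was the higher. RPL4, a protein that lines the exit tunnel, rose by 0.32 ± 0.08 and RPL10A, a large subunit protein near the E site, by 0.30 ± 0.08. RPL5, which binds the 5S ribosomal RNA, had 1412, 1445 and 1295 CPM in sham shFXR libraries, against 1136, 1209 and 1064 CPM in sham shControl libraries (0.28 ± 0.08, adjusted p = 0.0072). Its partner RPL11 rose by 0.24 ± 0.08 (adjusted p = 0.028). MDM2, which both proteins can bind, fell by 0.25 on the log2 scale, with an SE of 0.07. These calls were kept without the sham shControl library 2, at 0.42 for RPL12, 0.41 for RPS4X, 0.37 for RPL4, 0.39 for RPL10A, 0.35 for RPL5, 0.35 for RPL11 and -0.24 for MDM2.

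After irradiation, most members were called higher in shFXR cells. Of the 85, 55 were called higher in irradiated shFXR than in irradiated shControl cells, against 19.5% of all genes, and 5 were called lower, against 21.3% of all genes (40.8% in either direction). Of the 1580 other genes averaging at least 100 CPM, 392 were called higher and 500 lower. The median log2 difference was 0.29 over the members and -0.00 over all genes, and 76 of 85 values were positive. Large subunit genes rose in 34 of 46 cases and fell in 1, and small subunit genes rose in 21 of 31 cases and fell in 1. The groups did not overlap, with shFXR above, for 58 members (25.8% of all genes) and, with shFXR below, for 5 (27.1% of all genes). Leaving out 1 library at a time gave between 40 and 65 members called higher. The 5 lower calls became 1 without the irradiated shControl library 3, 2 without the irradiated shFXR library 1 or 2, 3 without the irradiated shFXR library 3, and 2 with total counts as the only scaling.

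RPL13, a large subunit protein, had 2575, 2405 and 2833 CPM in irradiated shFXR libraries, against 1756, 1657 and 1813 CPM in irradiated shControl libraries. The groups lay well apart, with a log2 difference of 0.58 ± 0.09 (adjusted p = 4.2e-05). RPL10, which joins the large subunit late in its assembly, had 3332, 3118 and 3477 CPM in irradiated shFXR cells, against 2183, 2104 and 2454 CPM in irradiated shControl cells (0.56 ± 0.09, adjusted p = 6.4e-05). Here too the lowest shFXR library was above the highest shControl library. RPS2, RPL12 and RPL4 rose by 0.52 ± 0.09, 0.51 ± 0.08 and 0.48 ± 0.08. The stalk proteins RPLP0, RPLP1 and RPLP2, which recruit translation factors, rose by 0.29 ± 0.09, 0.44 ± 0.10 and 0.42 ± 0.10, and RPSA, a small subunit protein also known as a laminin receptor, by 0.28 ± 0.09. RPL5 rose by 0.43 ± 0.08, and RPL11 differed by 0.17 ± 0.08 (adjusted p = 0.11). RPS27A did not separate the lines in either condition, with 0.07 ± 0.09 after irradiation (adjusted p = 0.56) and -0.01 ± 0.09 in sham cells (adjusted p = 0.94).

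**Figure D2:**
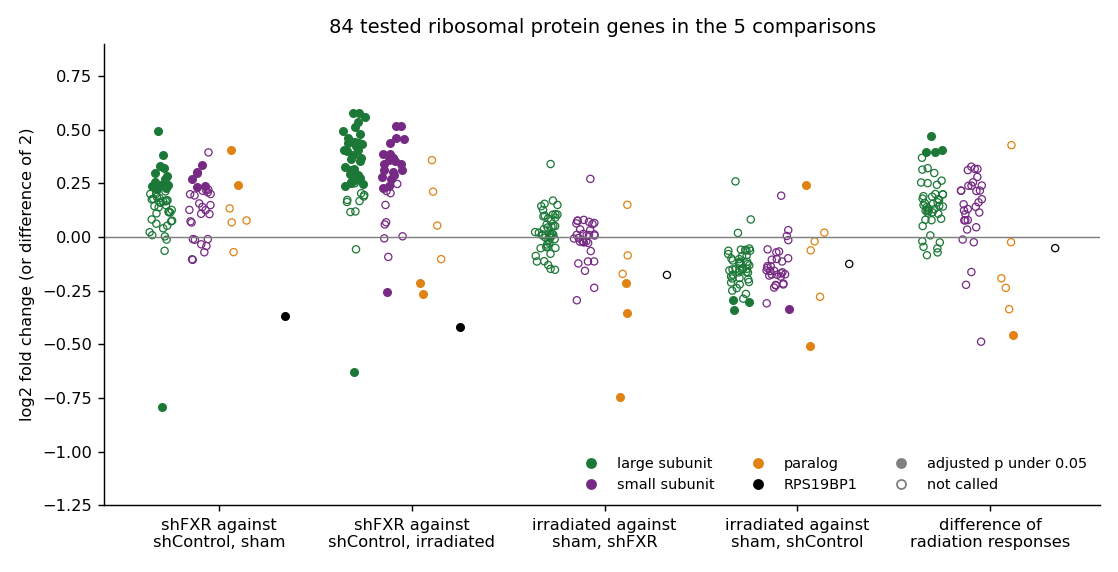
log2 fold change of each tested member other than the Y-linked one in the 5 comparisons, by class, with filled points for an adjusted p under 0.05 and open points for the rest. In both comparisons of the lines most points lie above 0 and RPL19 lies at -0.79 and -0.63, while in shControl cells after radiation most lie a little below 0, around a median of -0.15.

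In both comparisons of the lines 16 members were called higher, and RPL19 and RPS19BP1 were called lower. The share of all genes called in both was not computed, so these counts have no background beside them. Taken singly, the sham and irradiated comparisons called 18.0% and 19.5% of all genes higher, and 19.4% and 21.3% lower. The sham and irradiated comparisons use different libraries, and across the 85 members their log2 differences had a Pearson correlation of 0.53, against 0.65 across all genes tested. Genes are not independent replicates, so this is a description. Among canonical subunits, RPS26, a protein near the mRNA exit of the small subunit, was the other gene called lower after irradiation, with 275, 255 and 275 CPM in shFXR libraries and 306, 307 and 350 CPM in shControl libraries. The log2 difference was -0.26 ± 0.09 (adjusted p = 0.036) and it was no longer called without the irradiated shControl library 3 (-0.19, adjusted p = 0.16) or with any 1 irradiated shFXR library left out (adjusted p up to 0.13).

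**Figure D3:**
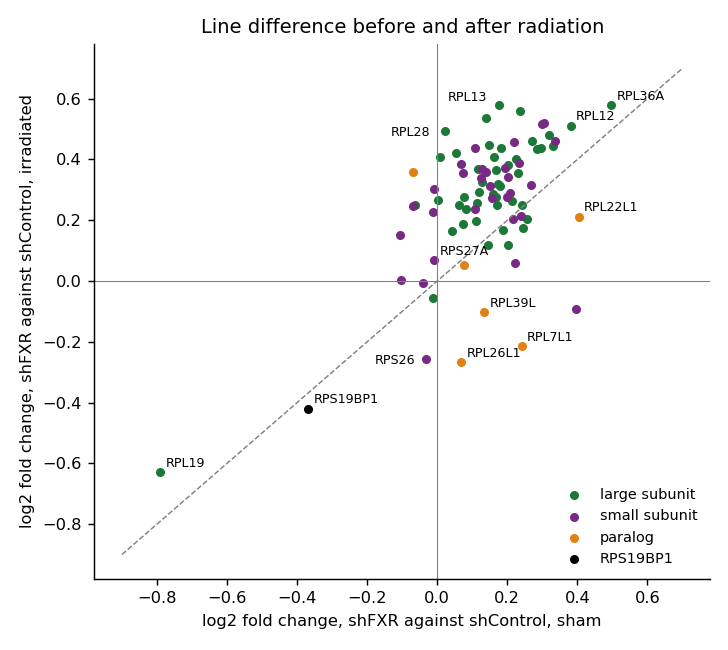
log2 fold change of each member, other than the Y-linked one, between the shFXR and shControl lines after sham irradiation (horizontal) and after irradiation (vertical), with a dashed line of equality. Most genes lie in the upper right above the line, RPL19 lies alone at -0.79 and -0.63, and RPL7L1 is positive on the horizontal axis (0.24) and negative on the vertical one (-0.21).

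RPL19, a large subunit protein that takes part in a bridge between the subunits, was lower in shFXR cells. It had 1306, 1246 and 1335 CPM in irradiated and 1235, 1297 and 1324 CPM in sham shFXR libraries, against 2004, 1909 and 2099 CPM in irradiated and 2142, 2584 and 1946 CPM in sham shControl libraries. All 6 shFXR libraries lay far below all 6 shControl libraries, and radiation left no gap between groups of the same line. The log2 difference between the lines was -0.79 ± 0.09 in sham cells (adjusted p = 1.1e-06) and -0.63 ± 0.09 after irradiation (adjusted p = 1.3e-05), and it kept its call when any 1 library was left out (-0.88 to -0.65 and -0.66 to -0.59). Taken as a share of the counts of all members, RPL19 included, the fall was larger. Such a share needs no scaling between libraries. It also falls where other members rise, and most of them were higher in shFXR cells, so the larger fall is not separate evidence. RPL19 made up 1.04% ± 0.0194 of member counts in irradiated and 1.06% ± 0.0598 in sham shFXR cells, against 2.04% ± 0.0422 in irradiated and 2.04% ± 0.0770 in sham shControl cells (SD, n = 3). As a share of RPL13A counts it stood at 18.99% ± 0.562 in irradiated and 20.9% ± 1.79 in sham shFXR cells, against 38.9% ± 1.15 in irradiated and 40.1% ± 2.81 in sham shControl cells.

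The same ratio of shares was taken for the 75 members of at least 100 CPM. In sham cells the log2 ratio of a member's share of member counts, shFXR over shControl, was -0.95 for RPL19, and the next lowest was -0.26 for RPS21. The highest was 0.25 for RPL22L1, and 72 of 75 members lay within 0.25 of 0. After irradiation the ratio was -0.97 for RPL19, -0.59 for RPS26 and 0.24 for RPL13 at the top, with 68 of 75 members within 0.25 of 0. RPL19 spans chr17:39200283-39204732 (hg38, plus strand), and 42 other tested genes lie within 1000000 bases of it. Of these neighbours, 7 were called higher and 8 lower in sham cells (median log2 difference -0.09), against 18.0% and 19.4% of all genes. After irradiation 10 were called higher and 5 lower (median 0.13), against 19.5% and 21.3% of all genes. RPL23, a ribosomal protein gene among the neighbours, differed by 0.17 in sham cells and rose by 0.32 after irradiation. It was called in sham cells without the sham shControl library 2 (0.27).

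RPS19BP1 had 37.9, 29.4 and 40.7 CPM in irradiated and 38.1, 39.03 and 45.0 CPM in sham shFXR libraries, against 42.0, 46.2 and 56.5 CPM in irradiated and 47.5, 64.3 and 46.2 CPM in sham shControl libraries. Every shFXR library was lower than the shControl libraries of its treatment. The log2 difference was -0.42 ± 0.13 after irradiation (adjusted p = 0.017) and -0.37 ± 0.13 in sham cells (adjusted p = 0.035). The sham value was -0.19 (adjusted p = 0.24) without the sham shControl library 2, and the call was also lost without the sham shFXR library 1 or 2. The call after irradiation was lost without the irradiated shControl library 3 (-0.29, adjusted p = 0.12) or the irradiated shFXR library 2 (-0.29, adjusted p = 0.11).

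**Figure D4:**
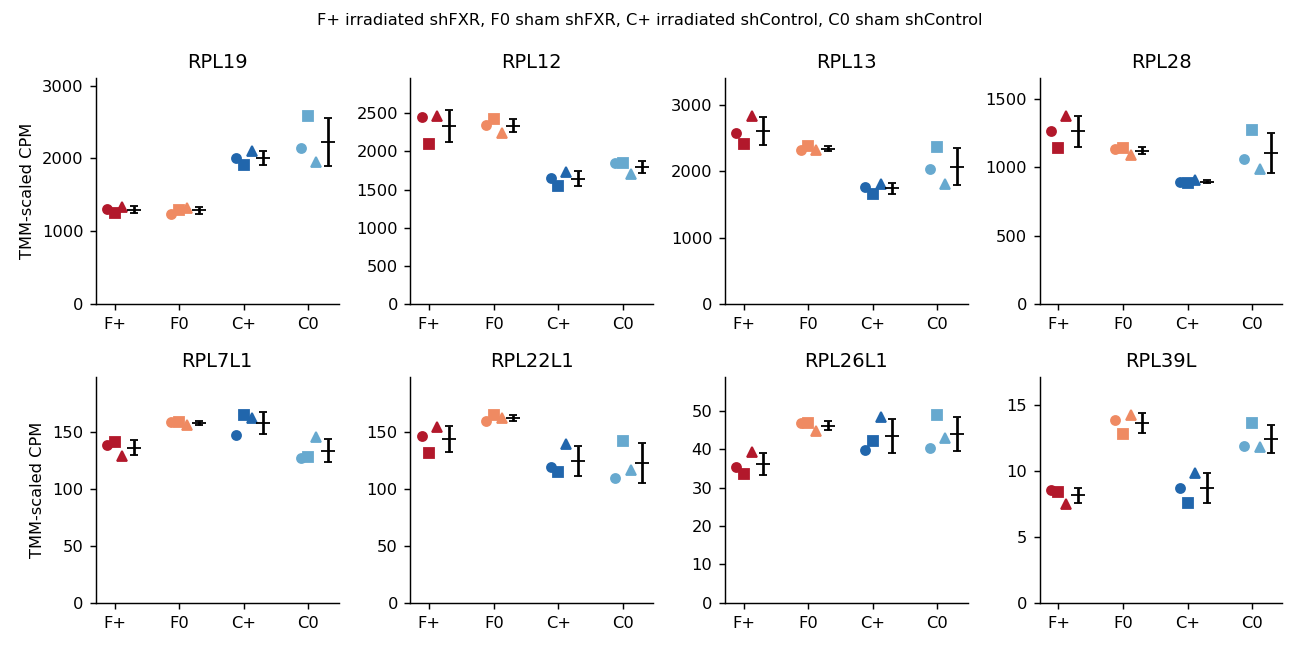
TMM-scaled CPM of 8 members in each library (circle, square and triangle for libraries 1, 2 and 3) with the mean and SD of each group of 3. RPL19 is lower in all 6 shFXR libraries, RPL12 is higher in all 6, RPL39L is lower in irradiated libraries of both lines, and RPL7L1 has its higher groups in sham shFXR and irradiated shControl cells.

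Paralogs were called in both directions. Of the 7 tested, 2 were called higher in sham cells (18.0% of all genes) and 2 lower after irradiation (21.3% of all genes) in the comparison of the lines, and 3 were called lower by radiation in shFXR cells (10.2% of all genes). RPL7L1, whose product is known from work on early ribosome assembly rather than as a standard subunit, had 138, 142 and 129 CPM in irradiated and 159, 159 and 156 CPM in sham shFXR libraries, against 147, 165 and 162 CPM in irradiated and 127, 128 and 146 CPM in sham shControl libraries. Irradiated libraries were the lower ones in shFXR cells and the higher ones in shControl cells, with no overlap in either line. The radiation response was -0.21 ± 0.07 in shFXR cells (adjusted p = 0.043) and 0.24 ± 0.07 in shControl cells (adjusted p = 0.041), and their difference was -0.46 ± 0.10 (adjusted p = 0.008). The difference of the responses kept its call when any 1 library was left out (-0.52 to -0.42), whereas the 2 responses lost theirs without 7 and 9 of the single libraries. Between the lines RPL7L1 rose by 0.24 ± 0.07 in sham cells (adjusted p = 0.014) and was lower by 0.21 on the log2 scale after irradiation (-0.21 ± 0.07, adjusted p = 0.024). Its partner RPL7, a canonical large subunit protein, rose by 0.26 ± 0.09 in sham cells and differed by 0.20 ± 0.09 after irradiation (adjusted p = 0.066).

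RPL39L, the form of RPL39 known from testis and from some tumours, had 8.53, 8.43 and 7.47 CPM in irradiated and 13.9, 12.8 and 14.2 CPM in sham shFXR libraries. In shControl cells it had 8.72, 7.61 and 9.87 CPM after irradiation and 11.9, 13.6 and 11.8 CPM after sham irradiation. Irradiated libraries were below sham libraries in both lines. The log2 change was -0.74 ± 0.13 in shFXR cells (adjusted p = 0.00026) and -0.51 ± 0.13 in shControl cells (adjusted p = 0.015), and the difference between them, -0.24 ± 0.18, was not called (adjusted p = 0.39). In shControl cells the call was lost without the irradiated library 2 (-0.42, adjusted p = 0.097). RPL39, its partner, changed by -0.09 ± 0.09 and -0.06 ± 0.09 in shFXR and shControl cells (adjusted p = 0.55 and 0.72). Counts of RPL39L, not corrected for length, were 0.751% ± 0.0796 of those of RPL39 in irradiated and 1.19% in sham shFXR cells, against 0.871% in irradiated and 1.19% in sham shControl cells.

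RPL22L1, a paralog of the RNA-binding large subunit protein RPL22, had 147, 132 and 155 CPM in irradiated and 160, 165 and 163 CPM in sham shFXR libraries, against 120, 115 and 139 CPM in irradiated and 110, 143 and 117 CPM in sham shControl libraries. The sham groups did not overlap (0.40 ± 0.09, adjusted p = 0.002), while after irradiation the groups overlapped and the difference was 0.21 ± 0.09 (adjusted p = 0.077). The radiation responses differed by -0.19 (adjusted p = 0.34), and by -0.32 (adjusted p = 0.043) without the sham shControl library 2. RPL22 itself differed by 0.04 ± 0.08 and 0.16 ± 0.08 in the same comparisons (adjusted p = 0.71 and 0.099). RPL22L1 counts were 52.0% ± 2.39 of RPL22 counts in irradiated and 59.5% ± 3.01 in sham shFXR cells, against 50.3% ± 2.32 in irradiated and 46.2% ± 4.49 in sham shControl cells.

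RPL26L1, a close copy of RPL26, had 35.3, 33.6 and 39.2 CPM in irradiated and 46.9, 46.7 and 44.7 CPM in sham shFXR libraries, against 39.7, 42.1 and 48.3 CPM in irradiated and 40.3, 48.9 and 42.9 CPM in sham shControl libraries. Irradiated shFXR libraries were the lowest of the 4 groups. Radiation lowered it in shFXR cells (-0.36 ± 0.09, adjusted p = 0.0098), a call lost without the irradiated shFXR library 2 (-0.31, adjusted p = 0.055), and in shControl cells the change was -0.02 ± 0.09. The difference of these responses, -0.34 ± 0.13, was not called (adjusted p = 0.086), and it was called without the sham shControl library 2 (-0.43, adjusted p = 0.018). After irradiation it was lower in shFXR than in shControl cells (-0.27 ± 0.09, adjusted p = 0.026), and that call was lost without the irradiated shControl library 3 (-0.18, adjusted p = 0.16) or the irradiated shFXR library 1 or 2. RPL26 differed by 0.25 ± 0.13 in that comparison (adjusted p = 0.14). Near-identical paralogs may exchange reads during counting, and no value here separates that.

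The other 2 pairs with given levels changed less or were nearly silent. RPL36AL, an autosomal copy of the X-linked RPL36A, lay between 248 and 326 CPM in all libraries, and the lines overlapped. Its differences between the lines were 0.08 ± 0.09 in sham cells and 0.05 ± 0.09 after irradiation. RPL36A, at far fewer counts, had 12.3, 13.1 and 11.1 CPM in irradiated and 10.5, 9.88 and 8.47 CPM in sham shFXR libraries, against 10.1, 7.26 and 7.11 CPM in irradiated and 6.01, 7.31 and 7.13 CPM in sham shControl libraries. Each shFXR library was above the shControl libraries of its treatment, by 0.58 ± 0.15 after irradiation (adjusted p = 0.0038) and 0.50 ± 0.15 in sham cells (adjusted p = 0.015). RPL3, a core protein of the large subunit, rose in shFXR cells by 0.40 ± 0.08 after irradiation and 0.22 ± 0.08 in sham cells. RPL3L was between 0.577 and 1.69 CPM in all libraries and was not called in any comparison.

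Radiation moved few members in shFXR cells. By edgeR, 0 of 85 were called higher in irradiated than in sham shFXR cells, against 10.9% of all genes, and 3 were called lower, against 10.2% (21.0% in either direction). At an unadjusted p under 0.05, 2 were higher and 4 lower, and the same count over all genes was not made. DESeq2 called 1 higher, and total counts as the only scaling gave 1 higher and 4 lower. With library weights limma called 5 higher and 8 lower, but it also called 6298 of all genes, against 3379 by edgeR. Without the sham shControl library 2 or 3, 1 was called higher. The 3 lower members were the paralogs RPL39L, RPL26L1 and RPL7L1, which became 1 without the irradiated shFXR library 2. The members' median change was 0.01 and that of all genes 0.02, and 46 of 85 values were positive. Groups did not overlap for 4 members above (22.6% of all genes) and 10 below (21.1% of all genes).

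In shControl cells, 1 member was called higher in irradiated than in sham cells, against 5.07% of all genes, and 5 were called lower, against 4.96%. The median change was -0.15 over the members and -0.00 over all genes, and 77 of the 85 values were negative. At an unadjusted p under 0.05, 1 was higher and 23 were lower, and the same count over all genes was not made. Groups did not overlap for 1 member above (12.7% of all genes) and 7 below (12.0%). RPS15, a protein in the head of the small subunit, had 375, 361 and 389 CPM in irradiated and 432, 569 and 421 CPM in sham shControl libraries (-0.34 ± 0.10, adjusted p = 0.039). No irradiated library reached a sham one. RPL28 fell by 0.30 and RPL18 by 0.29 on the log2 scale, each with an SE of 0.09.

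These calls in shControl cells rested on single libraries. Without the sham shControl library 2, RPS15 changed by -0.19 (adjusted p = 0.16), RPL28 by -0.19 (adjusted p = 0.12) and RPL18 by -0.19 (adjusted p = 0.15), and the members' median became -0.06. The 5 lower calls became 1 without that library, 16 without the sham shControl library 3, 2, 0 and 3 without the irradiated shControl libraries 1, 2 and 3, and 2 without the sham shFXR library 1 or 2 or the irradiated shFXR library 1. With only the 2 groups in the fit 0 members were called. With total counts as the only scaling 9 were called lower and 0 higher. The higher call, RPL7L1, was lost without 9 of the 12 libraries and was kept without the sham shControl library 3, the irradiated shControl library 1 or the irradiated shFXR library 3.

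The difference between the radiation responses, shFXR minus shControl, was called above 0 for 4 of the 85 members, against 7.31% of all genes, and below 0 for 1, against 7.67% (15.0% in either direction). Its median was 0.15 over the members and 0.01 over all genes, and 68 values were positive. The 4 were all large subunit genes. RPL28 had 1267, 1144 and 1374 CPM in irradiated and 1134, 1139 and 1090 CPM in sham shFXR libraries, against 894, 882 and 909 CPM in irradiated and 1056, 1269 and 985 CPM in sham shControl libraries. Irradiated libraries were the higher ones in shFXR cells and the lower ones in shControl cells, without overlap. Such a gap was seen for 22.6% and 12.0% of all genes in these 2 comparisons. The rise in shFXR cells, 0.17 ± 0.09, was not called (adjusted p = 0.19). The difference between the 2 responses was 0.47 ± 0.13 (adjusted p = 0.018). It was no longer called without the irradiated shFXR library 3 (0.40, adjusted p = 0.067). RPL13 and RPL18 each had a difference of 0.40, with an SE of 0.13, and lost the call without at least 9 of the 12 libraries.

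The number of members called above 0 was 11 without the sham shControl library 3, and 1 without the sham shControl library 2, under which the median was 0.06. It was 0 without the irradiated shFXR library 3, 2 without the sham or irradiated shControl library 1, and 1 without any other library but the irradiated shFXR library 2. The call below 0 became 4 without the sham shControl library 2, with RPL22L1, RPL26L1 and RPS26 beside RPL7L1, and 2 without the irradiated shControl library 1.

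Other genes that share the TOP motif or act in making ribosomes are given from lists, in the same fit. Between the lines, the shares of all genes called higher and lower were 18.0% and 19.4% in sham cells and 19.5% and 21.3% after irradiation, and no list was tested against them. Without the sham shControl library 2, the sham counts of higher and lower calls were 13 and 1 for the TOP-type genes, 23 and 0 for ribosome assembly, 7 and 2 for RNA polymerase I, 7 and 0 for snoRNA hosts, and 6 and 1 for regulators of the TOP programme. Of 17 tested TOP-type translation factors and related genes, 12 rose and 1 fell in shFXR against shControl sham cells, and 14 rose after irradiation, with medians of 0.28 and 0.45. EEF2, which moves the ribosome along the mRNA, averaged 4063 ± 104 CPM in irradiated and 3506 ± 85.3 CPM in sham shFXR cells, against 2439 ± 72.2 CPM in irradiated and 2699 ± 226 CPM in sham shControl cells. It rose by 0.74 ± 0.08 after irradiation and by 0.38 ± 0.08 in sham cells, and the radiation responses differed by 0.36 ± 0.11 (adjusted p = 0.034). NAP1L1, a histone chaperone with a TOP mRNA, rose by 0.63 ± 0.07 and 0.58 ± 0.07, and EIF3F, an initiation factor subunit, by 0.65 ± 0.07 and 0.28 ± 0.07 in the same order. VIM, the mesenchymal filament protein, rose by 1.10 ± 0.10 after irradiation, and EIF4A2, an initiation helicase, fell by 0.32 in sham cells.

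Among ribosome assembly genes, which fold and process ribosomal RNA in the nucleolus, 21 of 30 rose in sham shFXR against sham shControl cells, with a median of 0.32. After irradiation 12 rose and 5 fell (median 0.12), and within shFXR cells radiation lowered 15 of 30 (median -0.28), against 10.2% of all genes. In shControl cells radiation lowered 3 of 30, against 4.96% of all genes, with a median of 0.01. The responses differed below 0 for 6, against 7.67% of all genes. Without the sham shControl library 2 they did so for 12, in a fit that called 2984 genes in either direction instead of 2405. TCOF1, treacle, which acts in ribosomal DNA transcription, averaged 67.5 ± 1.45 CPM in irradiated and 109 ± 8.31 CPM in sham shFXR cells, against 39.8 ± 2.32 CPM in irradiated and 61.7 ± 6.49 CPM in sham shControl cells. Radiation lowered it in both lines (-0.69 ± 0.08 in shFXR and -0.63 ± 0.09 in shControl cells), and it was higher in shFXR cells by 0.76 ± 0.09 after irradiation and 0.82 ± 0.08 in sham cells. FBL, the snoRNA-guided methylase, fell with radiation by 0.44 in shFXR and by 0.48 in shControl cells on the log2 scale. NOP58, a snoRNP protein, fell by 0.44 in shFXR cells and changed by 0.13 ± 0.10 in shControl cells, a difference of -0.57 ± 0.15 (adjusted p = 0.014).

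Of 11 RNA polymerase I genes and ribosomal DNA factors found among 14 names, 6 rose and 1 fell in sham cells and 5 rose and 1 fell after irradiation in shFXR against shControl cells. POLR1E, a polymerase I subunit, rose by 0.62 ± 0.08 after irradiation and 0.58 ± 0.08 in sham cells, while the initiation factor RRN3 fell by 0.70 after irradiation on the log2 scale (SE 0.09). Of 12 snoRNA host genes found among 14, 6 rose in sham cells and 7 after irradiation, led by EPB41L4A-AS1 (1.10 ± 0.09 after irradiation, 0.73 ± 0.09 in sham cells) and GAS5 (0.65 ± 0.09 and 0.33 ± 0.09). The strand setting of the counts is not known, so EPB41L4A-AS1, an antisense gene, cannot be told apart from reads of its partner strand. Of 14 regulators of the TOP programme, 4 rose and 1 fell in sham cells, against 18.0% and 19.4% of all genes. After irradiation 4 rose and 2 fell, against 19.5% and 21.3% of all genes. MYC, which drives ribosomal genes, averaged 445 ± 15.9 CPM in irradiated and 474 ± 10.2 CPM in sham shFXR cells, against 222 ± 21.6 CPM in irradiated and 247 ± 16.6 CPM in sham shControl cells. LARP1 rose by 0.33 ± 0.07 after irradiation and by 0.55 ± 0.07 in sham cells, and LARP4, a relative that binds poly(A), fell by 0.80 and 0.33.

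Proteins of the mitochondrial ribosome, which translates the mitochondrial genome, are also nuclear encoded. Of 77 tested MRPL and MRPS genes, 2 rose and 32 fell in irradiated shFXR against irradiated shControl cells (median -0.19). Of all genes, 19.5% rose and 21.3% fell in that comparison. In sham cells 4 rose and 6 fell (median -0.04), fewer each way than the 18.0% and 19.4% of all genes. The sham values turned to 10 higher and 4 lower, with a median of 0.07, without the sham shControl library 2. Radiation lowered 21 of the 77 in shFXR cells, against 10.2% of all genes. MRPL39, a large subunit protein of the mitochondrial ribosome, fell by 0.78 on the log2 scale after irradiation (SE 0.10), and MRPS27 rose by 0.41 ± 0.06. Of 3 genes often used to check scaling, GAPDH differed by 0.04 ± 0.09 after irradiation and 0.07 ± 0.09 in sham cells and TBP by -0.19 ± 0.12 and -0.25 ± 0.12, while ACTB rose by 0.38 ± 0.10 in both.

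**Figure D5:**
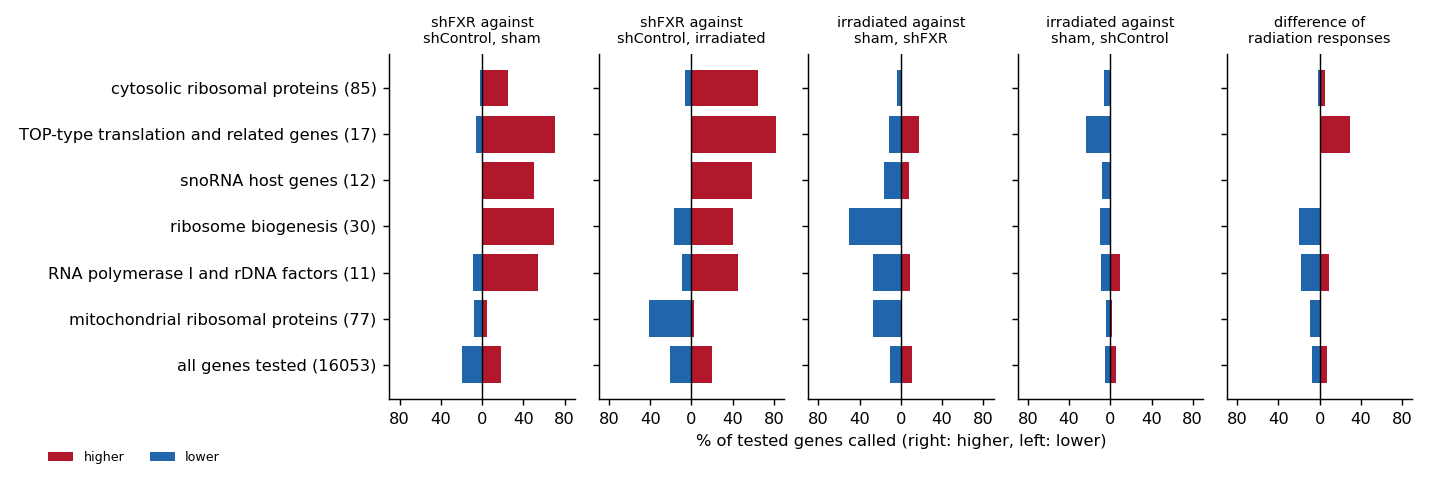
Share of the tested genes of each list, with the number tested in brackets, called higher (right of 0) and lower (left of 0) in the 5 comparisons, in percent. The cytosolic ribosomal protein genes and the TOP-type genes stand mostly right of 0 between the lines, and 32 of 77 mitochondrial ribosomal protein genes stand left of 0 after irradiation.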

How the data were processed

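The deposited table holds raw counts per gene for 12 libraries. Per the labels' protocols, mRNA was isolated on poly-T beads before random priming. Per the submitters' processing notes, the build was hg38 and DESeq2 1.20.0 was used. Aligner, counter and strand setting: not given in the sources used here. All 58735 identifiers and coordinates equal GENCODE 29. The members, gene lists and rules for named genes were chosen with earlier results of these data known.

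Counts were filtered with filterByExpr (minimum count 10, minimum total 15), scaled by TMM and fitted with edgeR 4.0.16 (R 4.3.3) with 1 coefficient per group over all 12 libraries, and 16053 genes were tested. Standard errors were derived from the F statistic, as the size of the fold change on the log2 scale over the root of F. The fit was also run on simulated counts drawn with its own estimates of spread, and no result here rests on that run. Named were, in each comparison, the 6 called members with the smallest adjusted p each way, the 3 with the largest and the 3 with the smallest range of group means, the 3 highest and lowest per kilobase, paralogs and partners, a fixed set of other members, and up to 2 called genes each way of each other list. Some of the genes this rule selects are not reported here. Other members named were chosen after their values were seen. Alternatives were other scalings, filters and rows, the replicate block, only the groups compared, DESeq2 1.42.0, limma 3.58.1 with library weights and leaving out each library. Depth was 17140918 to 19036159 counts per library. Each p-value sets a fold change against a spread between libraries, pooled over all 12 and drawn towards that of other genes.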

Additional observations from a re-analysis of the deposited data

Results flagged for a closer look

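The radiation response differed between the lines, by a test of the difference itself in edgeR, for 5 members. Not all 5 are reported here. The response in shFXR minus that in shControl cells was 0.40 for RPL13, 0.40 for RPL18, 0.47 for RPL28 and -0.46 for RPL7L1. Leaving out each of the 12 libraries in turn lost the call 10 times for RPL13, 9 for RPL18, 1 for RPL28 and 0 for RPL7L1. RPL28 and RPL7L1 had groups that did not overlap in either line, with opposite signs in the 2 lines. The rise of RPL28 in shFXR cells was not called by itself (adjusted p = 0.19). The share of all genes called for a difference of responses was 15.0%, so 5 of 85 members is below it.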

How the results depend on the processing

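No call of a named member changed direction under the alternatives run. The members' median for radiation in shFXR cells, 0.01, lay on either side of 0. It was -0.03 with total counts, -0.01 with TMM without the members, -0.02 without a filter and -0.00 with only the groups compared. In sham cells, members called higher in shFXR cells numbered 54 with total counts, 32 without a filter and 55 with limma's library weights (added after seeing the data), and 1 was called lower with total counts. After irradiation 2 were called lower with total counts. For radiation in shFXR cells, higher calls were 1 with total counts, without a filter, with a mean of 5 CPM, with protein_coding rows only, without mitochondrial rows and with DESeq2, 3 with only the groups compared and 5 with limma, and lower calls were 7 with only the groups compared and 8 with limma. For radiation in shControl cells, higher calls were 0 with total counts, without a filter and with only the groups compared, and lower calls were 9, 9 and 0 there, 10 with DESeq2 and 16 with limma. For the difference of responses limma called 17 above and 2 below 0, and 4300 of all genes, against 2405 in the main fit. Its calls over all genes also rose elsewhere. They were 6730 against 6003 between the lines in sham cells and 8812 against 6557 after irradiation, where limma called 70 members higher and 5 lower. For radiation they were 6298 against 3379 in shFXR cells and 2659 against 1611 in shControl cells. With only the groups compared, 5063 of all genes were called for radiation in shFXR cells and 551 in shControl cells. Without mitochondrial rows the family's share was 14.4% in irradiated and 14.0% in sham shFXR cells, against 11.2% in irradiated and 12.4% in sham shControl cells. With total counts, all genes called higher and lower numbered 3820 and 2465 in sham cells and 3605 and 2799 after irradiation between the lines.

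Leaving out 1 library gave 12 to 58 higher and 1 to 2 lower calls in sham cells, 40 to 65 and 1 to 5 after irradiation, 0 to 1 and 1 to 4 for radiation in shFXR cells, 0 to 1 and 0 to 16 for radiation in shControl cells, and 0 to 11 and 1 to 4 for the difference. Medians ran between 0.09 and 0.25, 0.26 and 0.36, -0.03 and 0.04, -0.21 and -0.06, and 0.06 and 0.21. Of 33 results for named members, 16 kept their call under every alternative.

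The replicate numbers were not taken to pair the libraries, since 4 of 18 same-numbered pairs had deviations correlated above 0.1 (-0.22 to 0.34). With the replicate block, 17 and 2 members were called higher and lower in sham cells, 52 and 5 after irradiation, 0 and 2 for radiation in shFXR cells, 0 and 3 for radiation in shControl cells and 1 and 1 for the difference. Members under 100 CPM, such as RPS10, RPL3L and RPL36A, are measured with larger errors.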
